A study of Mus musculus with 11 samples.

Results

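Amotl1, Plekhg1, Synpo2, Ramp3, Tnnt1 and Inadl, 6 genes for signalling, scaffold and actin-binding proteins, were taken by name from a table of 17118 genes. They had been picked because their RNA was lower in AC-T than in saline mice, so every difference between these groups is given for them as a description, with no test. All 6 were above 0 in every library and passed the filter on low counts, which kept 15353 genes.

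AC-T mice were female C57/BL6J mice, 12 weeks old at dosing, given 8 weekly intraperitoneal injections. The first 4 held doxorubicin (2 mg/kg), which damages DNA, with cyclophosphamide (50 mg/kg), an alkylating drug. The other 4 held paclitaxel (5 mg/kg), which binds microtubules. Saline mice had the same sex, strain and age and got 8 weekly injections of 0.9% saline. Each library came from 1 mouse, as a punch of 0.2 mm from hippocampus in frozen coronal brain slices, and the titles put all mice at 1 month without saying after which event. The libraries were AC-T 501, 502, 503, 600 and 602 and saline 201, 202, 203, 300, 301 and 302. The study states 6 samples per group, of which 5 AC-T libraries are analysed here.

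Before any result, the library labelled saline 300 stood apart. Its count of Xist, which is made from the silenced X of female cells, was listed at 0, against 13057 to 22963 counts in the other 10 libraries, although all mice are labelled female. The fold changes of the 6 genes, the correlations and their contrast between saline mouse numbers are therefore also given without it. So are some counts of called genes and, for Tnnt1, the contrast between AC-T mouse numbers. Mouse numbers form sets by their leading digit, AC-T 501 to 503 against 600 and 602 and saline 300s (300 to 302) against 200s (201 to 203), and no label gives the meaning of these sets. AC-T and saline share no set, so set and treatment cannot be told apart between groups. Library totals ran from 23.4 to 32.1 M counts, where M stands for mega. The 16 hippocampal neuron markers were above 0 in all 11 libraries, with a summed level of 1230 to 1602 CPM (counts normalised to library size with TMM factors) in AC-T and 842 to 1441 CPM in saline.

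Angiomotin-like 1 (Amotl1) and Inadl, also called Patj, are scaffold proteins of cell junctions. Angiomotins bind the Hippo pathway effector YAP, and Patj joins the Crumbs polarity complex through many PDZ domains. Plekhg1 belongs to the exchange factors that load small GTPases with GTP, and synaptopodin-2 (Synpo2) bundles actin filaments. Ramp3 escorts the calcitonin receptor-like receptor to the cell surface and sets which peptides it binds. Tnnt1 is the troponin T of slow skeletal muscle, where it anchors the troponin complex to tropomyosin. The thalamus lies just below the dorsal hippocampus in a coronal slice, and its relay neurons use the transcription factors Tcf7l2 and Lef1 and the glutamate transporter Slc17a6.

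RefSeq windows of 250 bases before each annotated start (GRCm38.p6) matched all 6 genes, with 8 windows in all, of which Inadl had 3 under its name Patj. The files were made on GRCm39, so these positions belong to RefSeq and not to the files. The 4 windows printed are those of Plekhg1, Synpo2 and Ramp3, whose levels ran close together across libraries, and of Tnnt1, whose level did not run with theirs. They are given 5′ to 3′ on the strand of the gene, with the TAATTA letters that many homeodomain factors bind in capitals.
Plekhg1, chr10:3872417-3872666, plus strand: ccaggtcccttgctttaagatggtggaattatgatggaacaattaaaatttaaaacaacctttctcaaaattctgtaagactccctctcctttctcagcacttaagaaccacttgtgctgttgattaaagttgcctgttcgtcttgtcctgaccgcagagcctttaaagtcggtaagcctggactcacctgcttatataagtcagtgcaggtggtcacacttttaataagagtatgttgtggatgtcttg
Synpo2, chr3:123236150-123236399, minus strand: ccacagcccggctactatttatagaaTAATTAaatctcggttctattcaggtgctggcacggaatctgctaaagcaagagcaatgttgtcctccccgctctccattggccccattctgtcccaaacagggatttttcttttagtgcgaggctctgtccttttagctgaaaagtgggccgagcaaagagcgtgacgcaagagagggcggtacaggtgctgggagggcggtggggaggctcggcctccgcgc
Ramp3, chr11:6658283-6658532, plus strand: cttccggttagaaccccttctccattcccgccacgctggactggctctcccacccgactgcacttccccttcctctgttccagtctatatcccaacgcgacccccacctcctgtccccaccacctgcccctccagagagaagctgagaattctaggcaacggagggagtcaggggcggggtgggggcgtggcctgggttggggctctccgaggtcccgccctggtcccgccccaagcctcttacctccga
Tnnt1, chr7:4515976-4516225, minus strand: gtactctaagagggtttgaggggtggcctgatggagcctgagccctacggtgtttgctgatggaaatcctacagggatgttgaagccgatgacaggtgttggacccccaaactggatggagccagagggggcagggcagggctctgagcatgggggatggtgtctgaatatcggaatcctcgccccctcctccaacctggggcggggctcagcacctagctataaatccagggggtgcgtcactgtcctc
TAATTA stood in the Synpo2 window alone, with its first base 224 bases before the start, and 4.85% of 32817 windows of this length held it on either strand. The letters CAGCAGG, bound by ZIC factors, stood in 1 of the 3 Inadl windows, 139 bases before the start, and in 8.45% of all windows. The letters that TCF and LEF factors bind (CTTTGAA, or CTTTGAT, or CTTTGTA, or CTTTGTT) stood in 0 of the 8 windows and in 14.8% of all windows. AGGTCA, bound by ROR and other nuclear receptors, stood in 0 of the 8 and in 14.03% of all. All motifs were searched on both strands. The GC share of the printed windows was 41.2% for Plekhg1, 54.4% for Synpo2, 65.2% for Ramp3 and 59.2% for Tnnt1, against a median of 52.4% over all windows. The windows not printed lie on chromosome 9 (Amotl1) and chromosome 4 (Inadl).

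The 2 junction scaffolds were lower in every AC-T library than in any saline library. Amotl1 had 76.2, 47.5, 57.8, 59.7 and 70.4 CPM in AC-T 501, 502, 503, 600 and 602. In saline 201, 202, 203, 300, 301 and 302 it had 125, 116, 133, 116, 108 and 103 CPM. The groups did not overlap, and Amotl1 had the smallest spread of the 6 genes among saline mice on the log2 scale. It averaged 62.3 ± 11.2 CPM in AC-T (SD, n = 5) and 117 ± 10.96 CPM in saline (SD, n = 6), a log2 fold change of -0.91 ± 0.11 (SE of the edgeR fit). Inadl had 31.3, 16.7, 24.0, 23.3 and 29.2 CPM in the same order of AC-T libraries. In saline it had 76.8, 80.9 and 68.7 CPM in mice 201, 202 and 203, and 48.5, 48.6 and 48.6 CPM in mice 300, 301 and 302. Saline 200s and 300s therefore formed separate levels, and both lay above AC-T. Inadl averaged 24.9 ± 5.70 CPM in AC-T and 62.0 ± 15.2 CPM in saline, a log2 fold change of -1.32 ± 0.19.

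The exchange factor gene and the actin-bundling gene ran alike. Plekhg1 had 78.6, 43.9, 50.7, 50.3 and 64.0 CPM in AC-T 501, 502, 503, 600 and 602. In saline 201, 202, 203, 300, 301 and 302 it had 145, 108, 117, 95.1, 94.0 and 90.4 CPM. AC-T 501 came closest to the saline range, which saline 302 closed at the low end. Plekhg1 averaged 57.5 ± 13.9 CPM in AC-T and 108 ± 20.7 CPM in saline, a log2 fold change of -0.91 ± 0.16. Synpo2 had 43.9, 20.4, 26.6, 26.3 and 34.4 CPM in the AC-T libraries. In the saline libraries it had 75.5, 61.2, 62.4, 45.6, 49.9 and 49.8 CPM. The groups were parted here by the narrowest gap of the 5 genes that did not overlap, between AC-T 501 and saline 300. Synpo2 averaged 30.3 ± 9.07 CPM in AC-T and 57.4 ± 11.1 CPM in saline, a log2 fold change of -0.92 ± 0.19.

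The receptor partner Ramp3 had 35.8, 15.5, 19.99, 25.5 and 27.3 CPM in AC-T 501, 502, 503, 600 and 602. In saline 201, 202, 203, 300, 301 and 302 it had 72.0, 53.2, 54.5, 47.0, 43.3 and 41.3 CPM. Again AC-T 501 and saline 201 were the highest of their groups and the groups did not overlap. Ramp3 averaged 24.8 ± 7.72 CPM in AC-T and 51.9 ± 11.2 CPM in saline, a log2 fold change of -1.06 ± 0.20.

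The troponin gene Tnnt1 was the exception. It had 22.1, 15.8, 20.6, 8.79 and 14.9 CPM in AC-T 501, 502, 503, 600 and 602. In saline 201, 202 and 203 it had 71.5, 53.4 and 53.6 CPM, in saline 301 and 302 it had 30.0 and 28.8 CPM, and in saline 300 it had 8.42 CPM. The lowest value of all 11 libraries was thus a saline one, so the groups overlapped, and they did so through the library that lacked Xist. Tnnt1 averaged 16.4 ± 5.26 CPM in AC-T and 41.0 ± 22.7 CPM in saline, a log2 fold change of -1.32 ± 0.44. Without saline 300 the log2 fold change of Tnnt1 was -1.54. Leaving out saline 300 moved the other genes less, with -0.92 for Amotl1, -0.95 for Plekhg1, -0.98 for Synpo2, -1.10 for Ramp3 and -1.38 for Inadl.

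**Figure D1:**
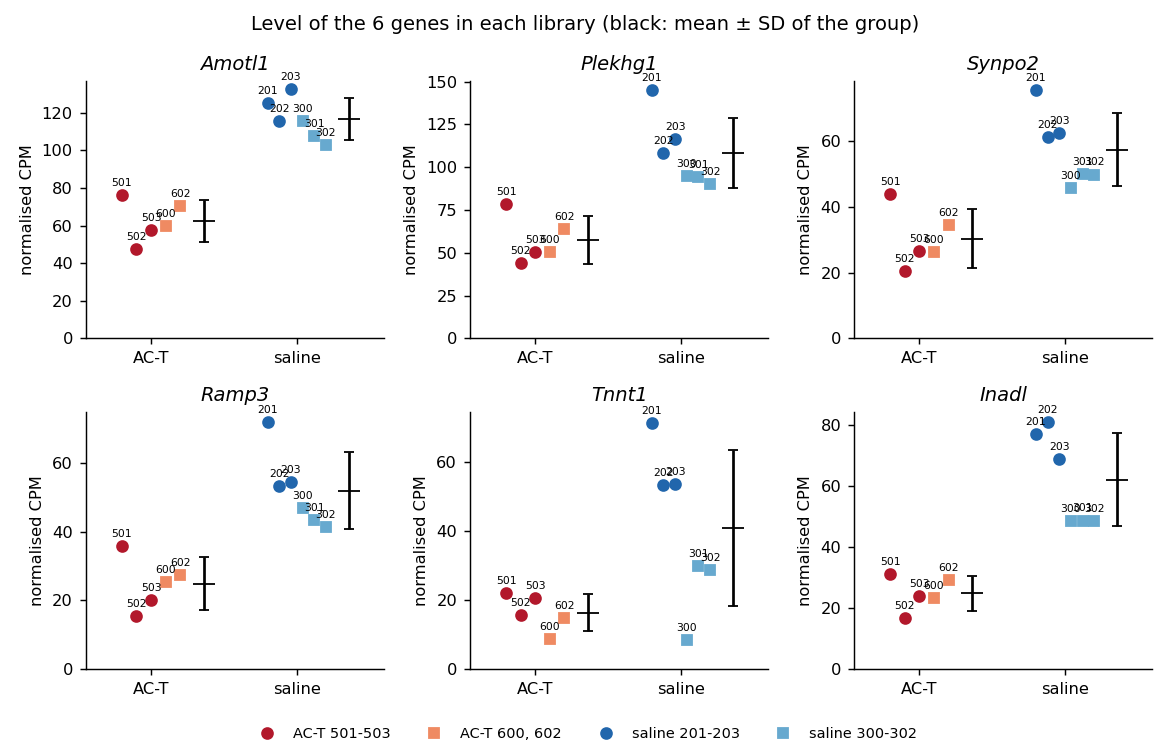
Normalised CPM (vertical axis, from 0, on its own scale for each gene) of each of the 6 genes in the 5 AC-T and 6 saline libraries, with mouse numbers beside the points, circles for AC-T 501 to 503 and saline 200s and squares for AC-T 600s and saline 300s, and black bars for mean ± SD. AC-T points sit below all saline points in 5 panels, while in the Tnnt1 panel saline 300, at 8.42 CPM, lies under all AC-T points.

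In 5 of the 6 genes the AC-T and saline levels did not overlap, while 7.52% of all genes tested had groups that did not overlap (3.1% with AC-T lower). The same 5 genes passed an adjusted p of 0.05 (edgeR quasi-likelihood test, Benjamini-Hochberg), as did 8.47% of all genes (1301, of which 751 or 4.89% of all were higher and 550 or 3.58% lower in AC-T). Since the genes were chosen on this contrast, nothing is read from either count. The split of all genes depended on scaling, with 593 higher and 663 lower under upper-quartile factors and 487 higher and 548 lower under library totals. Without saline 300, 832 genes passed, and without AC-T 502, AC-T 602 or saline 202 the number was 625, 681 or 815.

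The libraries kept much the same order from gene to gene. AC-T 501 was the highest AC-T library for all 6 genes, and AC-T 502 was the lowest for 5 of them, with AC-T 600 the lowest for Tnnt1. Among saline mice, 201, 202 and 203 held the 3 highest values for all 6 genes, although for Amotl1 saline 202 and saline 300 were nearly level at 115.8 and 115.7 CPM. The share of all genes with these orders of libraries was not counted, so the orders are not shown to be particular to the 6 genes. The spread within a group was wide for genes of this abundance. In AC-T the SD of log2 CPM ran from 0.27 for Amotl1 to 0.52 for Tnnt1, and exceeded that of 97.4% to 99.4% of genes within 0.5 log2 CPM of the same average level. In saline the SD ran from 0.13 for Amotl1, above 77.7% of such genes, to 1.11 for Tnnt1, above 99.8%. The median SD of genes of like abundance was between 0.09 and 0.10 in both groups.

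The contrast between mouse numbers within a treatment played no part in choosing the genes. All 6 were lower in saline 300s than in saline 200s. The summed level of the 16 hippocampal neuron markers was 1313 to 1441 CPM in the 300s and 842 to 1133 CPM in the 200s, without overlap, with a median log2 difference of 0.44 and 3 markers called higher (edgeR). The thalamic markers had a median log2 difference of -0.43 with 1 called lower. Of the 11 mural and smooth muscle markers 2 were called lower, with a median of -0.37. The troponin, tropomyosin and tropomodulin list had a median of -0.13 with 1 called lower. The 11 choroid plexus and ependymal markers had a median of 2.27 with 0 called. The part of any of these lists in the differences of the 6 genes was not tested. Inadl averaged 48.6 ± 0.0874 CPM in the 300s and 75.5 ± 6.22 CPM in the 200s (SD, n = 3 each), a log2 difference of -0.64 ± 0.18 that did not pass (edgeR adjusted p = 0.0983). Tnnt1 averaged 22.4 ± 12.1 CPM in the 300s and 59.5 ± 10.4 CPM in the 200s, a log2 difference of -1.41 ± 0.38 that did not pass either (edgeR adjusted p = 0.0960). Without saline 300 the Tnnt1 difference was -1.01 ± 0.22 (edgeR adjusted p = 0.0988) and the Inadl difference -0.63 ± 0.21 (edgeR adjusted p = 0.198). Over all genes 40 then passed. With all 6 saline mice Amotl1 differed by -0.20 ± 0.14, Plekhg1 by -0.40 ± 0.20, Synpo2 by -0.45 ± 0.23 and Ramp3 by -0.45 ± 0.25, with edgeR adjusted p between 0.285 and 0.493. Without saline 300 these differences were -0.24, -0.42, -0.41 and -0.50 in that order (edgeR adjusted p from 0.423 to 0.538). In all, 0 of 6 genes passed, against 1.03% of all genes (158, of which 81 were higher and 77, or 0.502% of all, lower, and under library totals 90 and 325). At an unadjusted edgeR p under 0.05 there were 2 of the 6, Tnnt1 and Inadl, against 3080 of all 15353 genes. DESeq2 called those 2, with adjusted p of 0.0300 for Tnnt1 and 0.0308 for Inadl, and 1488 of all 15353 genes. Without AC-T 502 edgeR called Inadl (adjusted p = 0.0365) and 304 of all genes.

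AC-T 600 and 602 could be set apart from AC-T 501 to 503 for 0 of 6 genes, against 0.117% of all genes (18, of which 12 were higher and 6 lower, or 18 and 5 under library totals). The log2 difference, the 600s minus the others, ran from -0.72 ± 0.46 for Tnnt1 to 0.15 ± 0.29 for Ramp3, with edgeR adjusted p of at least 0.553. At an unadjusted edgeR p under 0.05 there were 0 of 6, against 2069 of all 15353 genes. DESeq2 also called 0 of 6, against 580 of all genes. The SE of these differences ran from 0.16 for Amotl1 to 0.46 for Tnnt1. Without AC-T 501 the difference was 0.57 ± 0.17 for Ramp3 (edgeR unadjusted p = 0.00855, adjusted p = 0.168) and 0.31 ± 0.12 for Amotl1 (edgeR unadjusted p = 0.0293, adjusted p = 0.249). Without saline 300, which enters the shared estimate of the spread, the SE for Tnnt1 was 0.24 (edgeR unadjusted p = 0.0143, adjusted p = 0.260).

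**Figure D2:**
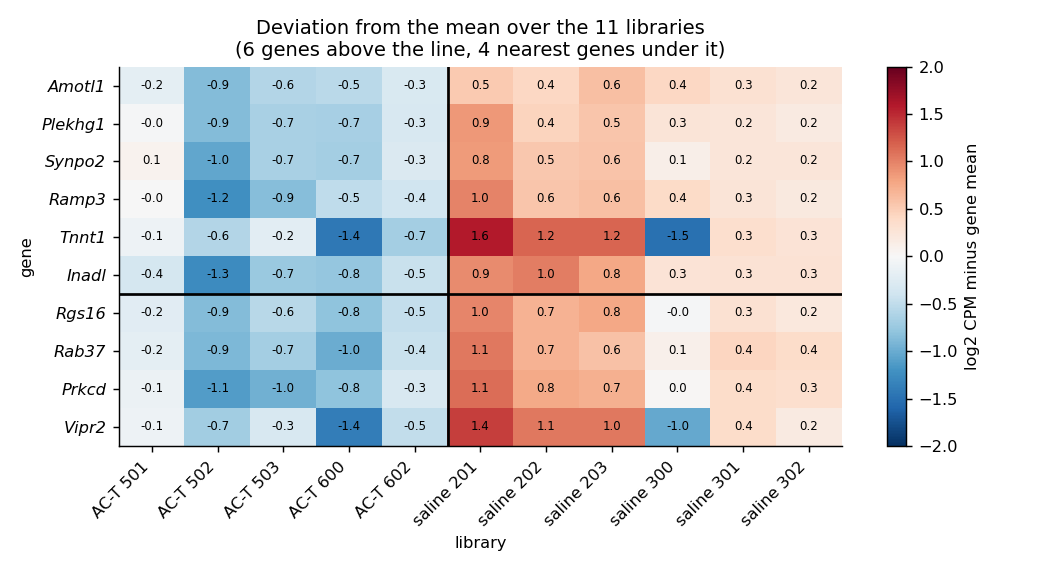
Log2 CPM of each gene minus its mean over the 11 libraries, by library (AC-T left, saline right), from blue (below the mean) to red (above it), with the 6 genes above the black line and 4 genes of like pattern, Rgs16, Rab37, Prkcd and Vipr2, under it. Of the 6 genes all but Tnnt1 are darkest blue in AC-T 502, and of the 10 rows Tnnt1 and Vipr2 are the ones far below their mean in saline 300.

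Likeness between genes was measured as the root mean squared difference of log2 CPM over the 11 libraries, after centring each gene on its own mean, among 12365 genes. This measure takes in the difference between AC-T and saline by which the 6 genes were picked, so it is a description of them. Plekhg1 and Synpo2 formed the closest pair of the 6, at 0.0816, and each was the nearest of all genes to the other. Centring within each group, which removes the difference between AC-T and saline, left the pair at 0.0809. The next closest pair within groups was Synpo2 and Ramp3, at 0.118. With each gene centred on its mean over all 11 libraries it was Amotl1 and Plekhg1, at 0.135. Ramp3 stood 0.139 from Synpo2 and 0.151 from Plekhg1, and its nearest gene outside the 6 was Cpne9 at 0.177. Amotl1 lay closest to Lef1 (0.110), the transcription factor named above, and Vav3 (0.129), another exchange factor of small GTPases. Inadl lay closest to Prkcd (0.169), a protein kinase C, then to Rgs16 (0.189), which speeds the shut-off of G proteins, and Rab37 (0.193), a vesicle GTPase. The mean of the 6 genes was most like Rgs16, at 0.0614, followed by Rab37 (0.115), Prkcd (0.134), Opn3 (0.149) and Plekhd1 (0.156). Lef1, Vav3, Prkcd and Rgs16 are on the list of thalamic markers. With centring within each group the nearest genes of Amotl1 were others, Pitpnc1 (0.0845), Olig1 (0.0878) and Frmpd1 (0.0964), of which 0 are on that list. The nearest gene of Inadl was Ret (0.127). The nearest gene outside the 6 was Gpr4 (0.0971) for Plekhg1, Prkcd (0.104) for Synpo2 and Tcf7l2 (0.147) for Ramp3. The mean of the 6 genes was then most like Rgs16 (0.0597), Rab37 (0.0947), Prkcd (0.104), Pcp4 (0.110) and Dbndd1 (0.117).

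Tnnt1 stood 0.673 to 0.785 from each of the other 5 genes, while those 5 stood 0.0816 to 0.279 from each other. Its nearest gene was Vipr2, a receptor for the peptides VIP and PACAP, at 0.182, and the next was Plekhd1 at 0.492. Within groups Vipr2 was also the nearest, at 0.181, and Grp came next at 0.446. Vipr2 had 8.54, 5.64, 7.35, 3.49 and 6.51 CPM in AC-T 501, 502, 503, 600 and 602. In saline 201, 202, 203, 300, 301 and 302 it had 24.0, 19.2, 19.1, 4.498, 11.8 and 10.4 CPM. Both genes were thus lowest in AC-T 600 and saline 300 within their groups. These 2 libraries also had the highest summed level of the 11 choroid plexus and ependymal markers, 5532 CPM in AC-T 600 (93.7 to 2307 CPM in the other AC-T libraries) and 5672 CPM in saline 300 (28.8 to 2995 CPM in the other saline libraries). In saline 203, 7 of the 11 choroid plexus and ependymal markers were listed at 0. The part of these levels in the Tnnt1 result was not tested.

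Markers of thalamus and habenula were lower together with the 6 genes, none of which is on the marker list. This list, like all gene lists here, was chosen with earlier results of these data known. Its counts and p-values for AC-T against saline are therefore a description and no independent test. Of 18 tested markers, 15 fell and 0 rose in AC-T (edgeR, adjusted p under 0.05), with a median log2 fold change of -0.95 against -0.0029 over all genes, and without saline 300 the number was again 15. Adarb1, an RNA-editing enzyme, fell to 279 ± 33.3 CPM in AC-T, against 471 ± 42.2 CPM in saline (edgeR adjusted p = 0.00125). Ntng1, an axon guidance ligand, fell to 49.7 ± 4.77 CPM in AC-T, against 95.5 ± 17.5 CPM in saline (edgeR adjusted p = 0.00197). Lef1 fell by 0.86 and Vav3 by 0.85 on the log2 scale (edgeR adjusted p = 0.00248 each). The summed level of the 19 listed markers was 798 to 1084 CPM in AC-T and 1414 to 2150 CPM in saline, with Gbx2 and Pou4f1 listed at 0 in some libraries. In this bulk tissue, fewer cells of a type and less RNA per cell cannot be told apart.

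The mean log2 CPM of the 18 tested markers, called the thalamic level here, was 4.56 ± 0.23 in AC-T and 5.57 ± 0.30 in saline. With that level as a covariate, the log2 fold change was -0.38 ± 0.18 for Amotl1, -0.03 ± 0.21 for Plekhg1, -0.02 ± 0.28 for Synpo2, -0.09 ± 0.31 for Ramp3, 0.22 ± 0.84 for Tnnt1 and -0.32 ± 0.28 for Inadl. The covariate did not overlap between the groups, the fit rests on a straight line across both, and each SE was larger than without it. With the level of the 17 markers that had no listed 0, an alternative chosen after seeing the data, the value was -0.30 for Amotl1 and -0.18 for Inadl and positive for the other 4, from 0.07 for Plekhg1 to 0.14 for Tnnt1.

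The saline mice used as the comparison also set the size. Against saline 200s alone the log2 fold change was -1.01 for Amotl1, -1.11 for Plekhg1, -1.13 for Synpo2, -1.28 for Ramp3, -1.86 for Tnnt1 and -1.61 for Inadl. Against saline 300s alone it was -0.80 for Amotl1, -0.70 for Plekhg1, -0.68 for Synpo2, -0.82 for Ramp3, -0.45 ± 0.41 for Tnnt1 and -0.96 for Inadl. The sign was negative in both, and the size for Tnnt1 depended most on the choice. For Tnnt1 the 300s held saline 300, the library without Xist, at 8.42 CPM, against 30.0 and 28.8 CPM in saline 301 and 302. No fit against saline 301 and 302 alone was made.

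**Figure D3:**
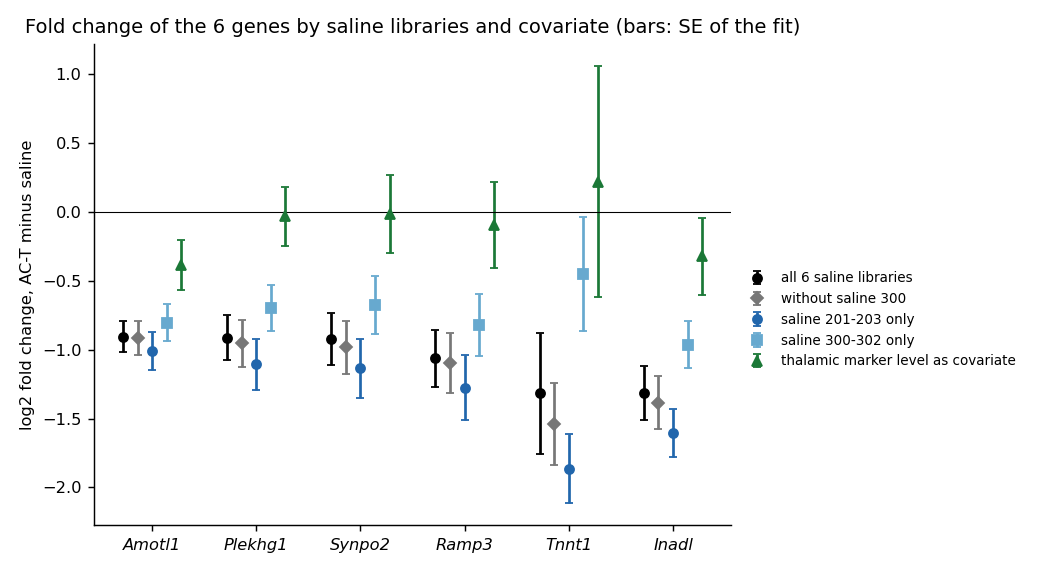
Log2 fold change, AC-T minus saline (vertical axis), of each gene with its SE, against all 6 saline libraries (black), without saline 300 (grey), against saline 201 to 203 (dark blue), against saline 300 to 302 (light blue) and with the thalamic level as a covariate (green). The first 4 lie below 0 for all 6 genes, while with the covariate the values lie between -0.38 for Amotl1 and 0.22 for Tnnt1.

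Within the 6 saline mice, where treatment plays no part, 5 of the 6 genes had a Pearson r between 0.70 and 0.88 with the thalamic level. Ramp3 had the highest, r = 0.88 (exact permutation p = 0.0153, adjusted over 6 genes 0.0917) and a Spearman coefficient of 0.94 (exact permutation p = 0.0167, adjusted 0.05). Plekhg1 had r = 0.81 and Spearman 0.94, with adjusted exact permutation p of 0.0938 and 0.05. Amotl1 had r = 0.80 and Spearman 0.83, Inadl r = 0.78 and Spearman 0.77, and Synpo2 r = 0.70 and Spearman 0.77, with adjusted exact permutation p from 0.0938 to 0.165. Tnnt1 had r = 0.32 and Spearman 0.77, with adjusted exact permutation p of 0.553 and 0.103, and without saline 300 its r was 0.98. Without saline 300, r was 0.82 to 0.95 for the other 5. None of the 12 adjusted values was under 0.05. Leaving out the 2 mice farthest from the median level, saline 301 and 302, brought r to 0.07 for Amotl1, so its relation rests on those mice. It then was 0.85 for Plekhg1, 0.80 for Synpo2, 0.91 for Ramp3, 0.61 for Tnnt1 and 0.62 for Inadl. The 200s lay above the 300s on both axes, and the relation within each set of 3 mice was not tested. No correlation was computed for the 5 AC-T mice or for any other gene. The coefficients are therefore not shown to be particular to the 6 genes.

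**Figure D4:**
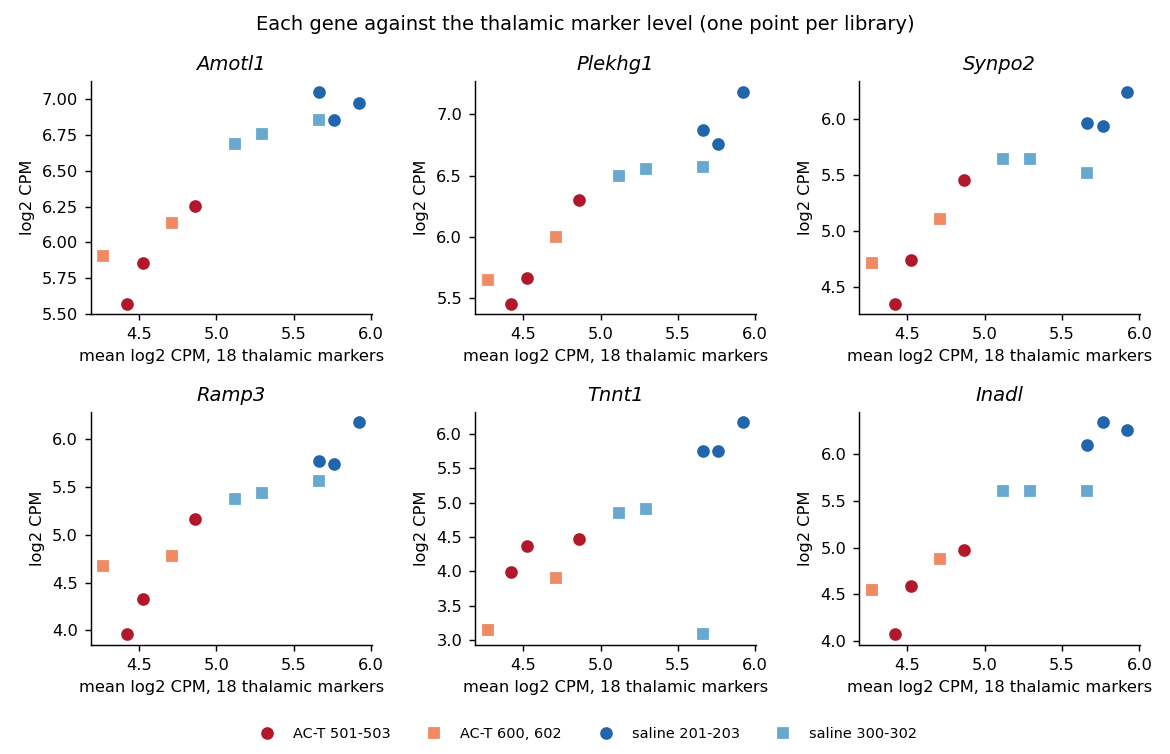
Log2 CPM of each gene (vertical axis) against the thalamic level, the mean log2 CPM of 18 thalamic markers (horizontal axis), with 1 point per library, red and orange for AC-T and dark and light blue for saline 200s and 300s. AC-T points lie at 4.27 to 4.86 and saline points at 5.12 to 5.92 on the horizontal axis, and saline 300 lies far below the other saline points in the Tnnt1 panel.

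Close relatives and partners of the 6 genes, taken whatever their values, had log2 fold changes from -0.23 to 0.32. For Amotl1, Amot averaged 28.1 ± 3.22 CPM in AC-T and 32.6 ± 2.34 CPM in saline, and Amotl2 averaged 23.1 ± 3.81 CPM in AC-T and 27.2 ± 1.70 CPM in saline. Their log2 fold changes of -0.21 ± 0.08 and -0.23 ± 0.10 did not pass (edgeR adjusted p = 0.106 and 0.159). For Inadl, the related scaffold Mpdz had a log2 fold change of 0.16 ± 0.06, and Mpp5 (Pals1), which ties Patj to Crumbs, had 0.02 ± 0.06, which turned to -0.002 under upper-quartile factors (edgeR adjusted p = 0.105 and 0.859). For Synpo2, synaptopodin (Synpo), which shapes the spine apparatus, rose to 155 ± 8.16 CPM in AC-T, against 124 ± 16.7 CPM in saline, a log2 fold change of 0.32 ± 0.09 (edgeR adjusted p = 0.0420, and 0.0931 without saline 300). For Ramp3, Ramp1 had a log2 fold change of -0.18 ± 0.09, Ramp2 of -0.02 ± 0.08 and their receptor Calcrl of -0.11 ± 0.10, with edgeR adjusted p of at least 0.250. For Tnnt1, Tnnt2 had only 1.30 to 4.49 CPM in AC-T and 1.05 to 4.78 CPM in saline, with a log2 fold change of 0.20 ± 0.47 (edgeR adjusted p = 0.841). Calcr, Tnnt3 and Synpo2l are not analysed here.

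**Figure D5:**
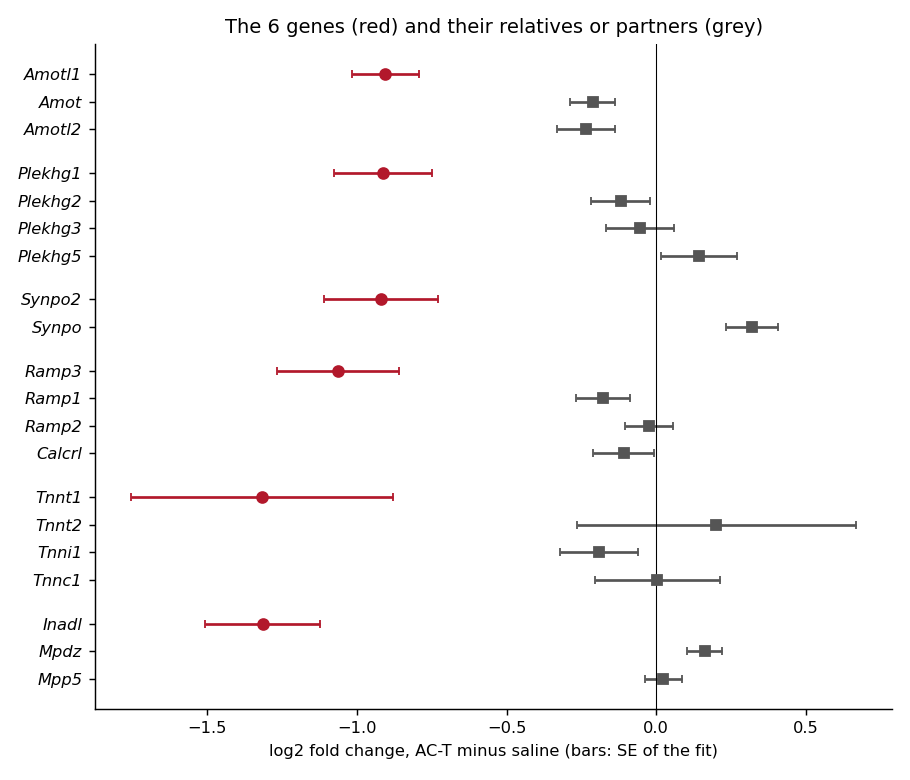
Log2 fold change, AC-T minus saline (horizontal axis), with the SE of the fit, for the 6 genes (red circles) and their relatives or partners (grey squares), in blocks by gene. The red points lie between -1.32 and -0.91, and the grey ones between -0.23 for Amotl2 and 0.32 for Synpo, with Mpp5 on either side of 0 according to the scaling.

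The wider pathways, 6 lists without the 6 genes, held 90 tested genes, of which 9 rose and 2 fell (edgeR, adjusted p under 0.05), or 5 and 2 under upper-quartile factors. Of all 15353 genes 751 rose and 550 fell (8.47% called), or 593 and 663 under upper-quartile factors. Whether the lists differ from all genes in this was not tested. The 90 genes had a median log2 fold change of 0.01 beside -0.0029 over all genes. Among 18 genes of the angiomotin and Hippo list 1 rose and 0 fell, the Hippo kinase gene Stk4, by 0.16 ± 0.04 on the log2 scale (edgeR adjusted p = 0.0484). Among 20 polarity and tight junction scaffolds 1 rose and 0 fell, Dlg1, a synaptic and junctional PDZ scaffold, at 0.27 ± 0.06 (edgeR adjusted p = 0.0235). Among 16 genes for PLEKHG factors, small GTPases and their effectors 2 rose and 1 fell. The effector kinase Rock2 rose to 182 ± 10.3 CPM in AC-T, against 137 ± 11.3 CPM in saline, and did not overlap between groups (edgeR adjusted p = 0.00390). The kinase Pak1 rose by 0.33 ± 0.09 (edgeR adjusted p = 0.0492), and Limk2, which phosphorylates cofilin, fell by 0.21 ± 0.06 on the log2 scale (edgeR adjusted p = 0.0480).

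Among 15 synaptopodin and actin crosslinker genes 3 rose and 1 fell. Fhl2, a LIM domain scaffold, rose to 27.9 ± 1.91 CPM in AC-T, against 17.4 ± 2.57 CPM in saline (edgeR adjusted p = 0.00283). Besides Synpo, the crosslinker Actn1 rose by 0.26 ± 0.07 on the log2 scale (edgeR adjusted p = 0.0393). Of 9 genes for calcitonin family peptides and receptors 0 passed, with a lowest edgeR adjusted p of 0.0956, 2 at an unadjusted p under 0.05, 2 called by DESeq2 and 0 by limma-voom. Of 12 troponin, tropomyosin and tropomodulin genes 2 rose and 0 fell, the tropomyosin Tpm3 at 0.20 ± 0.04 and the tropomodulin Tmod2, which caps actin filaments, at 0.24 ± 0.06 (edgeR adjusted p = 0.0184 and 0.0249). Rock2, Fhl2 and Tpm3 were called in all 11 fits that left out 1 library. The count of 11 genes was 4 without saline 300 (Rock2, Limk2, Fhl2 and Tpm3), 6 without AC-T 501, 3 without AC-T 502 or AC-T 602, 4 without saline 202, and 7 without AC-T 600, saline 201 or saline 301.

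Markers of other cells that a punch could hold were counted in the same way. Of 16 hippocampal neuron markers 2 rose and 0 fell, the transcription factor gene Neurod6 (edgeR adjusted p = 0.0150) and Mpped1 (edgeR adjusted p = 0.0255). Of 11 neocortical neuron markers 4 rose and 1 fell, and the T-box factor gene Tbr1 rose to 54.2 ± 2.15 CPM in AC-T, against 23.2 ± 4.77 CPM in saline (edgeR adjusted p = 5.98e-04). Rprm and Lamp5 rose by 0.85 and 0.59, and Rorb fell by 0.58 on the log2 scale (edgeR adjusted p from 0.00552 to 0.0181). Of 11 endothelial markers Pecam1 fell, and the list ran from -0.30 to -0.04 on the log2 scale (median -0.19). Of 10 astrocyte markers the water channel gene Aqp4 fell, and the list ran from -0.46 to 0.13 (median -0.19). DESeq2 called 4 endothelial and 3 astrocyte markers, against 2559 of all genes, and limma-voom called 2 and 1. At an unadjusted edgeR p under 0.05 there were 4 of each list, against 3829 of all 15353 genes. Among 11 mural, 11 choroid plexus and ependymal, 10 oligodendrocyte and 10 microglia markers 0 passed in edgeR, DESeq2 or limma-voom. These lists also had 0 markers at an unadjusted edgeR p under 0.05. Without saline 300, Mpped1, Pecam1 and Aqp4 did not pass (edgeR adjusted p = 0.0506, 0.0659 and 0.0651). Values of these lists stand beside those of the 6 genes, and their part in the result was not tested.

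Genes next to the 6 on the chromosome were also compared. Of 12 nearest RefSeq neighbours 8 were tested, and 0 passed in either direction (edgeR), against 8.47% of all genes. The lowest edgeR adjusted p was 0.307, and 0 had an unadjusted p under 0.05, against 3829 of all 15353 genes. With 8 genes, nothing is read from a count of 0 beside these shares. Cwc15 beside Amotl1, for example, had a log2 fold change of 0.03 ± 0.04, Sec24d beside Synpo2 of 0.01 ± 0.09, and Ppp1r12c beside Tnnt1 of -0.08 ± 0.04. The largest changes were those of Tnni3, on the other side of Tnnt1, at -0.94 ± 0.90 with a mean of 0.433 CPM in AC-T and 0.840 CPM in saline, and of Iyd beside Plekhg1, at -0.38 ± 0.25.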

How the data were processed

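RNA-seq libraries from hippocampal punches of 5 AC-T and 6 saline mice were analysed, 1 mouse per library. The table deposited by the authors holds expected counts per gene (14.2% of values have a fraction), which were rounded to whole numbers. Per the submitters' processing notes, base calls were converted with Dragen 4.3.6, reads checked with FastQC 0.11.9 and genes quantified with Salmon 1.9.0 on GRCm39. Per the labels' protocols, the library kit was stranded and selected mRNA. The annotation release is not given in the sources used here.

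The 6 genes and all gene lists were chosen with earlier results of these data known. Levels are CPM from edgeR 4.0.16 in R 4.3.3 with trimmed mean of M values (TMM) factors, and log2 CPM used a prior count of 2. Genes were kept by filterByExpr with a minimum count of 10, and tested with edgeR's quasi-likelihood F test, 2-sided, with Benjamini-Hochberg adjustment over all 15353 genes and a threshold of 0.05. Contrasts of mouse numbers within a treatment came from a model with 4 group means over all 11 libraries. Correlations used exact permutation tests over 720 orders in scipy 1.17.1 (Python 3.11.15), 2-sided. On simulated counts of 15066 genes for AC-T against saline, the same test found 88% of the 100 that had a 1.5-fold change put in and 91% of the 100 that had a 2-fold one, and 7.73% of its calls were false. Changes were put only into genes above a floor of average level. Each gene was drawn independently, with no sets of mice and no shared tissue content, so these rates need not hold for the real libraries or the 6 genes. The text names all 6 genes, the 4 or fewer called genes of each list with the smallest adjusted p, fixed relatives and partners whatever their values, and the 3 genes most like each of the 6 or the 5 most like their mean, where these add to the text; 1 called gene of a list is not reported here. Alternatives were other scaling factors, other filters, DESeq2 1.42.0, limma-voom (limma 3.58.1), a robust fit, unrounded counts, each library left out, saline 200s or 300s alone, and the thalamic level as a covariate. Promoter windows are RefSeq's on GRCm38.p6. Library totals of 23.4 to 32.1 M counts (mega) set the counting precision. The SE printed for edgeR is the absolute log2 fold change divided by the square root of its F statistic. Permutation p-values come from reordering the 6 saline mice, while those of the fits set a difference against the spread between libraries. With 1 library per mouse, differences between mice and between punches cannot be told apart in that spread.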

Additional observations from a re-analysis of the deposited data

Results flagged for a closer look

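Over 74 pairs of a named gene and a group, 2 had 1 library far from the others of its group, where chance alone flags about 1 in 20 pairs. Dlg1, the polarity scaffold that rose in AC-T, had 129 CPM in AC-T 503 and 111 to 116 CPM in the other 4 AC-T libraries. The endothelial marker Pecam1 had 32.5 CPM in saline 203 and 28.0 to 29.7 CPM in the other 5 saline libraries. None of the 6 genes met this test in either group.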

How the results depend on the processing

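Other scaling factors, other filters, DESeq2, limma-voom, a robust fit, unrounded counts, either set of saline mice and each library left out kept the sign of all 6 AC-T minus saline log2 fold changes. With 1 library left out they ran from -0.99 to -0.82 for Amotl1, -1.05 to -0.81 for Plekhg1, -1.09 to -0.81 for Synpo2, -1.23 to -0.93 for Ramp3, -1.54 to -1.09 for Tnnt1 and -1.41 to -1.20 for Inadl. With the thalamic level as covariate the values were -0.38 for Amotl1, -0.032 for Plekhg1, -0.015 for Synpo2, -0.092 for Ramp3, 0.22 for Tnnt1 and -0.32 for Inadl, and with markers that had no listed 0 (chosen after seeing the data) they were -0.30, 0.074, 0.099, 0.13, 0.14 and -0.18 in that order. The cause was not tested. The 1301 genes called in AC-T became 2559 with DESeq2, 549 against saline 300s, 1 and 0 with those 2 covariates, and 625 to 1229 with 1 library left out. The 15 lower thalamic markers became 0 and 0 with the covariates, which hold these same markers, and 13 to 16 with 1 library left out. The 11 called genes of the 6 pathway lists became 7 under upper-quartile factors, 6 under library totals, 20 with DESeq2, 7 against saline 300s, 0 and 0 with the covariates, and 3 to 9 with 1 library left out.

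Saline 300s minus 200s called 158 genes, against 415 under library totals, 382 with at least 10 counts in every library, 1488 with DESeq2 and 18 to 304 with 1 library left out. DESeq2 called Tnnt1 (-1.41) and Inadl (-0.63), and Inadl ran from -0.70 to -0.58 with 1 library left out. AC-T 600s minus AC-T 501 to 503 called 18 genes, against 4 with at least 10 counts in every library, 580 with DESeq2, 0 with limma-voom and 21 to 120 with 1 library left out. The correlation with the thalamic level without saline 301 and 302 was 0.066 for Amotl1, 0.61 for Tnnt1 and 0.62 for Inadl.

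Directions turned for some relatives and markers. Synpo was -0.016 and -0.039 with the covariates, and Mpped1 -0.13 with the second. Ramp2 was 0.0084 against saline 300s, 0.085 and 0.065 with the covariates, and -0.065 to 0.028 with 1 library left out. Calcrl was 0.058 and Tnnt2 -0.38 against saline 200s, and Tnnt2 ran from -0.028 to 0.50 with 1 library left out. Mpp5 was -0.0019 under upper-quartile factors, -0.071 and -0.096 with the covariates, and -0.010 to 0.075 with 1 library left out. No paired analysis was possible because AC-T and saline mice share no mouse numbers. Values of low genes such as Tnnt2, at 1.05 to 4.78 CPM in saline, are limited by depth.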
